A study of Sus scrofa with 54 samples.

Results

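A set of 6 genes of the plasma cell and of IgA transport were followed in the ileum of piglets from 3 rearing environments. They were JCHAIN, TNFRSF17, CD79B, XBP1, SDC1 and PIGR. Features were taken by gene symbol or, where the array annotation gave none, by the name in the study's supplementary list of changed features. They made up 6 of the 6869 genes named on the array and 10 of the 24029 array features tested. JCHAIN, TNFRSF17, CD79B and XBP1 had 1 feature each, PIGR had 2 and SDC1 had 4, which are numbered below in the order of their array identifiers. All 10 features were kept, with no filter on low values. Per the study's methods the dams were Large White × Landrace, and all had been inseminated with semen of a single boar, whose breed is not given. Piglets of the IR group were born indoors and moved shortly after birth to single isolator units. They were given a mixture of antibiotics every day and were fed milk replacer up to day 28. Piglets of the IN group stayed with the sow indoors, and piglets of the OUT group stayed with the sow outdoors. All piglets were weaned at day 28, and all 3 groups had the same creep feed after that. Pieces of whole ileum were taken at days 5, 28 and 56 from different piglets, 6 per group and day, which gave 54 arrays. Isolation, antibiotics, milk replacer and the lack of the sow were all part of IR, so their effects cannot be told apart. Per the study's methods, IR and IN piglets came from the same indoor sows and OUT piglets from outdoor sows. Dam and place of birth thus cannot be told apart from rearing in comparisons with OUT.

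IgA is the main antibody of the gut surface. B cells in the wall of the gut switch to IgA, become plasma cells and settle in the lamina propria, where they secrete IgA as dimers held together by the J chain. The polymeric immunoglobulin receptor on the basal side of epithelial cells binds these dimers, carries them across the cell and releases them into the lumen together with a part of itself. Newborn piglets take up maternal antibody from colostrum and build up IgA plasma cells of their own in the first weeks of life.

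All values are log2 expression levels, normalised by the authors, so that a difference of 1 is a 2-fold change. The files hold no detection calls, and 49.0% of all values on the arrays lay under a level of 4, so a level under 4 was taken as one that could not be told from background. Where the lower group of a comparison had a mean under 4, its difference is a lower bound, computed with levels under 4 in that group set to 4. A feature was called changed where the unadjusted P of the limma fit was under 0.01 and the change was at least 2-fold. P-values adjusted over all 24029 features by the Benjamini-Hochberg method are given beside it. A 2-sided exact permutation test between groups of 6 piglets cannot give a P below 0.00216. In pieces of whole tissue, fewer cells of a type and less RNA per cell cannot be told apart. The number of arrays limits the precision.

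The epithelial gene EPCAM and the enterocyte gene FABP2 had mean levels of 12.9 and 13.3 over the 54 arrays. FABP6, the ileal bile acid binding protein gene, averaged 8.89 over the 54 arrays. At day 5 it averaged 3.55 in IR, 2.96 in IN and 3.12 in OUT. These means are under 4, so FABP6 did not mark the ileum at that age. Array medians lay between 3.99 and 4.22. The array of OUT piglet 3 at day 5 stood apart, with a mean correlation of 0.881 with its own group, against 0.935 or more for every other array. The array labelled IN piglet 3 at day 28 correlated at 0.935 with the other IN arrays of day 28 and at 0.973 with the IN arrays of day 5. IN piglets 4 and 5 of day 28 leaned the same way by less. They correlated at 0.956 and 0.955 with their own group and at 0.958 and 0.963 with the IN arrays of day 5. Values without both arrays are given below for results that they moved.

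JCHAIN encodes the J chain that joins IgA into dimers and IgM into pentamers. It was low at day 5, where the lowest, median and highest levels were 4.14, 4.59 and 6.58 in IR, 3.82, 5.46 and 7.83 in IN, and 3.93, 5.22 and 7.13 in OUT. At day 28 they were 11.87, 12.11 and 12.60 in IR, 4.70, 12.07 and 12.29 in IN, and 11.25, 11.62 and 12.22 in OUT. At day 56 the levels lay in a narrow band, from 12.13 to 12.87 in IR, from 12.60 to 13.06 in IN and from 12.78 to 13.08 in OUT. Except for IN piglet 3, every piglet of day 28 and of day 56 lay above all 18 piglets of day 5.

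**Figure D1:**
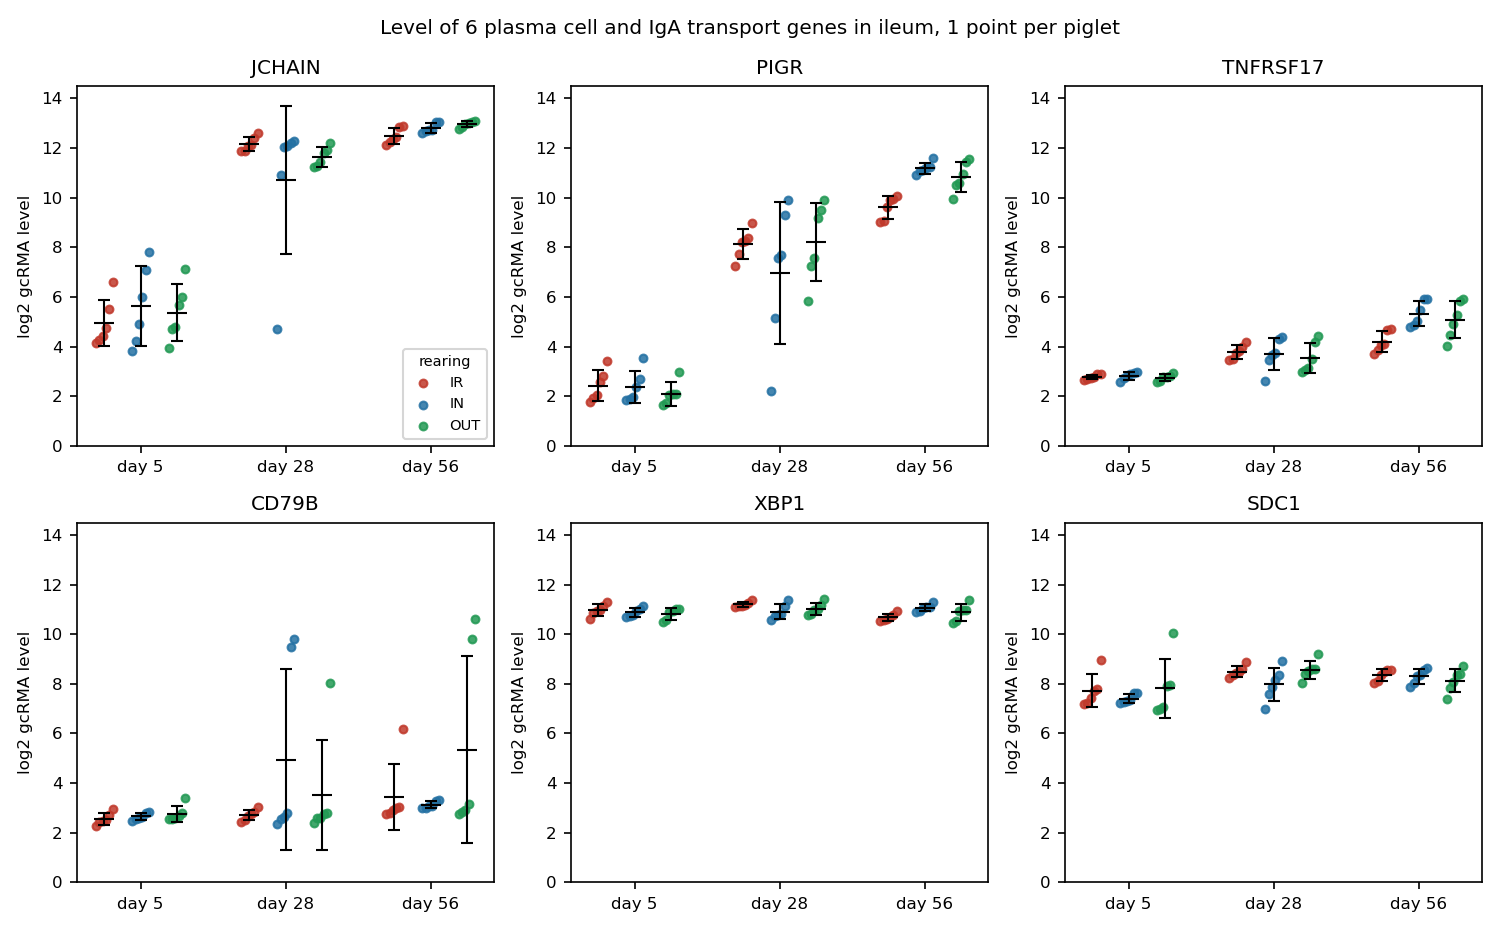
Log2 level of 1 feature for each of the 6 genes (vertical axes) in every piglet at days 5, 28 and 56 (horizontal axis), with IR, IN and OUT side by side; points are piglets, and bars are the mean ± SD of 6 piglets. JCHAIN and PIGR were high at day 28 in all piglets but IN piglet 3, XBP1 stayed between 10.44 and 11.42, and CD79B was above 6 in 6 piglets only.

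The difference of JCHAIN between days 28 and 5 was called in all 3 rearing groups. At day 28 it was 148-fold higher than at day 5 in IR (log2 difference 7.21, SE 0.70, adjusted P = 2.21e-10 by limma), 33.5-fold higher in IN (5.07, adjusted P = 9.56e-07) and 77.8-fold higher in OUT (6.28, adjusted P = 8.14e-09). Without IN piglet 3 the difference in IN was 6.27. From day 5 to day 28 the call was made for 4 of the 10 features in IR, 3 in IN and 3 in OUT, all higher at day 28. The same call took in 6.26% of all features in IR, 8.08% in IN and 6.92% in OUT.

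Between days 28 and 56 JCHAIN moved much less. It was 0.33 higher at day 56 in IR (adjusted P = 0.861 by limma), 2.11 higher in IN (adjusted P = 0.0662) and 1.30 higher in OUT (adjusted P = 0.273). The IN difference was called, but without IN piglet 3 it was 0.91 and was not (adjusted P = 0.277). In OUT no piglet of day 56 overlapped with day 28 (exact permutation P = 0.00216), and the difference was called once the arrays that stood apart were left out (adjusted P = 0.0497).

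JCHAIN was not called between rearing groups at any age. At day 5 the IR minus OUT difference was -0.42 (95% interval -1.85 to 1.01) and the IR minus IN difference was -0.69 (-2.12 to 0.74). At day 28 IR was 0.51 above OUT (-1.48 to 2.50, exact permutation P = 0.0411), an interval widened by IN piglet 3, which enters the pooled spread. Without that array the difference was again 0.51, with an SE of 0.23 in place of 0.94. At day 56 the order was turned. IR averaged 12.48 ± 0.32, IN 12.81 ± 0.20 and OUT 12.95 ± 0.12 (SD, n = 6), and 4 of the 6 IR piglets lay below every OUT piglet. The IR minus OUT difference was -0.47 (SE 0.13, adjusted P = 0.65 by limma, exact permutation P = 0.0152), which is 1.38-fold and short of the 2-fold call. The change of the IR minus OUT difference between day 56 and day 28 was -0.98 (SE 0.996, adjusted P = 0.9998 by limma).

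The 3 immunoglobulin heavy chain features followed here give the antibody side of the same cells. One was named IGHA2 and one IGHM by the study's own annotation, and LOC396781 has the synonym IGHG in the RefSeq gene table. The product text of the IGHM feature names an alpha chain, so its chain is uncertain, and features of related chains can share transcripts. The study listed all 3 as changed between IR and OUT at day 28, so their values in that comparison are not independent evidence.

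IGHA2 lay between 2.39 and 3.48 in all 18 piglets of day 5, within background. At day 28 its lowest, median and highest levels were 12.20, 13.12 and 13.49 in IR, 3.70, 12.26 and 12.72 in IN, and 10.78, 11.47 and 12.43 in OUT. At day 56 all piglets lay between 12.28 and 13.84. The day 28 over day 5 difference was thus at least 8.98 in IR, at least 6.84 in IN (8.27 without piglet 3) and at least 7.61 in OUT, on the log2 scale. LOC396781, also under 4 on average at day 5, followed with at least 6.76, 4.76 (6.01 without piglet 3) and 4.39. IGHM was at least 16.0-fold higher in IR, and its log2 bounds were 1.25 in IN (1.96 without piglet 3) and 1.03 in OUT. All 3 features passed the call in all 3 rearing groups.

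**Figure D2:**
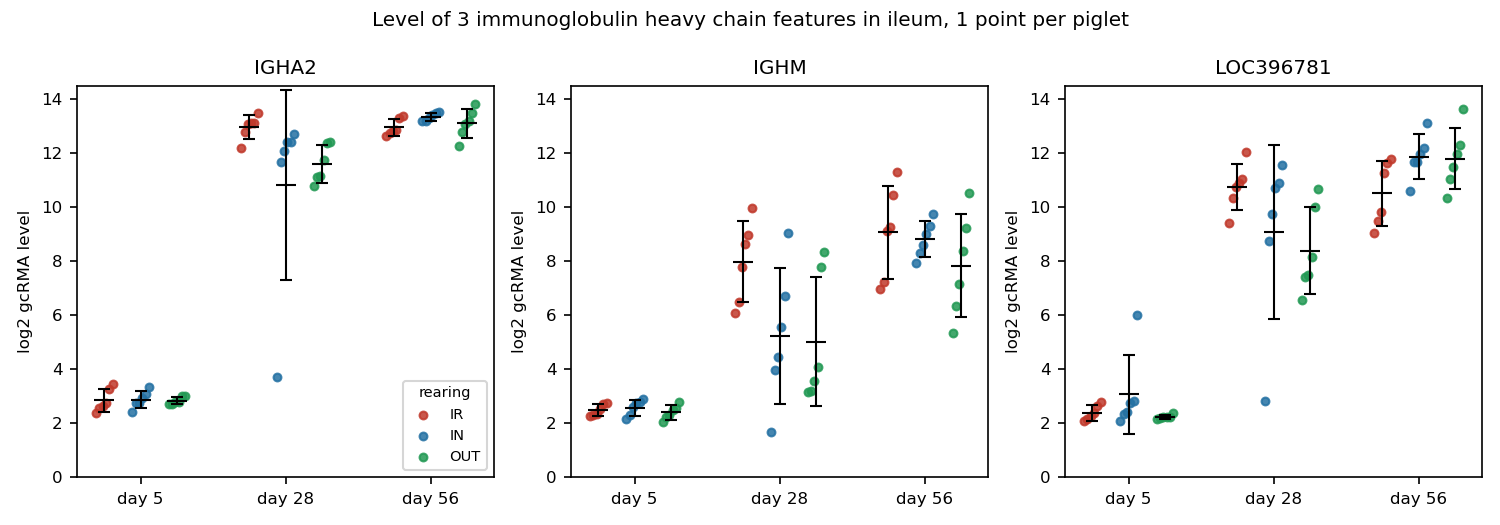
Log2 level of 3 immunoglobulin heavy chain features (vertical axes) in every piglet at days 5, 28 and 56 (horizontal axis), with IR, IN and OUT side by side; points are piglets, and bars are the mean ± SD of 6 piglets. IGHA2 was between 2.39 and 3.48 in all piglets of day 5 and at 12.28 or more in all piglets of day 56, while IGHM and LOC396781 stayed more scattered.

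IR had the highest mean of the 3 rearing groups in JCHAIN and in each immunoglobulin feature at day 28. IGHA2 was 1.36 higher in IR than in OUT (SE 1.13, exact permutation P = 0.00649). LOC396781 was 2.37 higher (exact permutation P = 0.0173) and IGHM 2.97 higher (exact permutation P = 0.0303). None of them was called with all arrays, and without the arrays that stood apart IGHA2 and LOC396781 were called, with an adjusted P of 0.999 for both by limma. By day 56 the sign of LOC396781 had turned, with a mean of 10.52 ± 1.2 in IR, 11.88 ± 0.83 in IN and 11.81 ± 1.1 in OUT (SD, n = 6). It was 1.29 lower in IR than in OUT (adjusted P = 0.685 by limma, exact permutation P = 0.0844). The change of the IR minus OUT difference between day 56 and day 28 was -3.66 for LOC396781 (SE 1.17, adjusted P = 0.9998 by limma). This change contains the day 28 difference for which the study listed the feature, so it is not independent evidence either. IGHA2 differed by -0.16 between IR and OUT at day 56 (95% interval -0.59 to 0.28). IGHM was 1.24 higher in IR than in OUT at that age (95% interval -0.49 to 2.97).

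PIGR encodes the receptor that transports IgA through the epithelium. The brighter of its features, PIGR (2), stands for the gene here, and the other one, PIGR (1), was correlated with it at 0.80 over 54 arrays after the group means were subtracted (0.78 without the arrays that stood apart). At day 5 PIGR lay between 1.67 and 3.53, within background. At day 28 its lowest, median and highest levels were 7.25, 8.24 and 8.97 in IR, 2.22, 7.64 and 9.91 in IN, and 5.83, 8.37 and 9.91 in OUT. IN and OUT piglets were scattered in PIGR (2) at this age, while the 6 IR piglets lay close together (SD 0.59). In PIGR (1) the IR piglets were scattered as well, with an SD of 1.34 against 1.42 in OUT. The day 28 over day 5 difference was at least 4.13 in IR, at least 2.98 in IN (3.93 without piglet 3) and at least 4.21 in OUT (adjusted P = 3.08e-08, 2.33e-06 and 4.31e-09 by limma). PIGR (1), also under 4 in every piglet of day 5, changed by at least 0.91, 0.98 (1.50 without piglet 3) and 1.48. Its measured differences passed the call in all 3 groups, although the bounds in IR and IN are under 2-fold.

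PIGR was called higher at day 56 than at day 28 in both sow-reared groups. At day 56 it lay from 9.04 to 10.09 in IR, from 10.93 to 11.60 in IN and from 9.96 to 11.55 in OUT. The day 56 over day 28 difference was 4.21 in IN (3.26 without piglet 3, adjusted P = 7.86e-05 with it by limma) and 2.62 in OUT (adjusted P = 0.0103). In IR it was 1.47 (adjusted P = 0.215 by limma) and short of the call, although every IR piglet of day 56 lay above every IR piglet of day 28 (exact permutation P = 0.00216). Without the arrays that stood apart this difference was called (adjusted P = 0.0748). PIGR (1) rose in IR as well, by 1.69 (adjusted P = 0.0978 by limma, exact permutation P = 0.0195). Over the 10 features, 1 was called higher at day 56 than at day 28 in IR, 4 in IN and 3 in OUT, against 2.41%, 2.57% and 3.06% of all features.

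At day 56 PIGR was lower in IR than in either sow-reared group. The 6 IR piglets had levels of 10.09, 9.90, 9.94, 9.63, 9.04 and 9.07. The 6 IN piglets had 11.60, 11.20, 11.23, 11.10, 11.07 and 10.93, and the 6 OUT piglets had 9.96, 10.59, 10.96, 10.51, 11.55 and 11.42. Every IR piglet was thus below every IN piglet, and 5 of 6 were below every OUT piglet. PIGR was 2.99-fold lower in IR than in IN (log2 difference -1.58, SE 0.25, adjusted P = 0.0407 by limma, exact permutation P = 0.00216). It was 2.33-fold lower against OUT (-1.22, SE 0.25, adjusted P = 0.65 by limma, exact permutation P = 0.00433). In 1 fit of all 9 groups, in place of the 3 groups of day 56, neither difference of PIGR (2) was called.

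PIGR (1) gave the same order with a wider gap. Its lowest, median and highest levels at day 56 were 5.76, 6.65 and 7.16 in IR, 8.19, 8.82 and 9.32 in IN, and 6.39, 8.04 and 8.91 in OUT. It was 4.47-fold lower in IR than in IN (-2.16, SE 0.37, adjusted P = 0.0919 by limma, exact permutation P = 0.00216) and 2.48-fold lower than in OUT (-1.31, exact permutation P = 0.0195). IN was 0.85 above OUT in this feature (95% interval 0.07 to 1.64, exact permutation P = 0.0758) and 0.36 above OUT in the other (-0.17 to 0.89).

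The 2 PIGR features were the only members called between IR and OUT at day 56, where 0.283% of all features were called, and they share their gene. PIGR was already among the genes the study named for this comparison under the same rule. Between IR and IN, 3 of the 10 were called lower in IR, both of PIGR and that of TNFRSF17, where 0.287% of all features were called. Between IN and OUT at day 56 none of the 10 was called, and 0.275% of all features were. None was called at day 5, where 0.337% of all features were called between IR and OUT, 0.0499% between IN and OUT and 0.366% between IR and IN. At day 28 again none was called, with 0.154%, 0.191% and 0.495% of all features in the same comparisons.

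**Figure D3:**
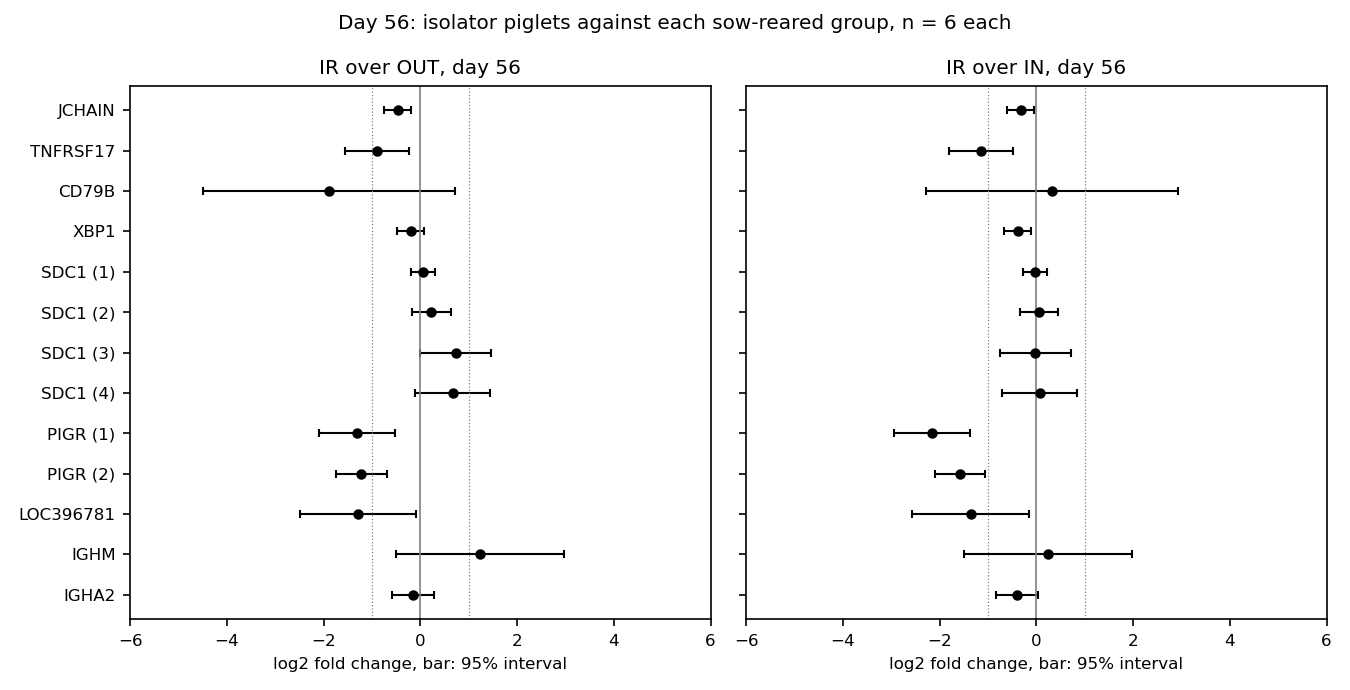
Log2 difference at day 56 (horizontal axis) of IR over OUT (left) and of IR over IN (right) for the 10 features of the 6 genes and the 3 immunoglobulin features (rows); bars are 95% intervals of the limma fit with 6 piglets per group, and dotted lines mark 2-fold changes. Features of a gene are numbered in the order of their identifiers, and SDC1 (2) and PIGR (2) are the brightest of theirs. The intervals of both PIGR features, TNFRSF17, JCHAIN and LOC396781 lay wholly below 0 in both comparisons. That of SDC1 (3) lay wholly above 0 for IR over OUT.

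PIGR is made by epithelial cells, and the 20 epithelial genes measured had a mean level that overlapped between the rearing groups at day 56. Their mean level lay between 11.85 and 12.09 in IR piglets, between 11.82 and 12.16 in IN piglets and between 11.48 and 12.03 in OUT piglets. Only APOA4, an apolipoprotein gene of enterocytes, was called among the 20, 1.03 lower in IR than in IN (adjusted P = 0.37 by limma). Of 17 genes known to regulate PIGR or to take part in transcytosis, such as interferon, TNF and Toll-like receptor genes, none was called between rearing groups at day 56. Their median log2 difference was -0.02 for IR over IN, against 0.00 over all features. The part of epithelial cells and of these regulators in the difference of PIGR was not tested.

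Genes of dividing cells were correlated with PIGR. Over the 54 arrays, after the group means were subtracted, the mean of 15 such genes correlated with PIGR (2) at 0.68 and with TNFRSF17 at 0.62 (0.66 and 0.57 without the arrays that stood apart). At day 56 their mean level lay between 5.83 and 7.63 in IR, between 6.46 and 8.28 in IN and between 5.54 and 8.99 in OUT. Their median difference was -0.56 for IR over IN and -0.37 for IR over OUT, and none of the 15 was called in either comparison. The part of dividing cells in the differences of PIGR and TNFRSF17 was not tested.

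At the earlier ages single genes of the list of PIGR regulators differed. TLR2, a receptor for bacterial lipoproteins, was lower in IR at day 5, with a mean of 4.30 against 6.07 in IN and 6.13 in OUT (differences of -1.77, adjusted P = 0.349 by limma, and -1.83, adjusted P = 0.524). IRF1, an interferon-induced transcription factor, was 1.34 higher in IR than in IN at day 28 (adjusted P = 0.497 by limma), but 1.05 higher and not called without IN piglet 3. IFNG averaged 4.93 in IR at day 28 and was under 4 in all IR piglets of days 5 and 56, a difference of at least 0.93 from day 5 (adjusted P = 0.000868 by limma) and from day 56 (adjusted P = 0.0480).

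TNFRSF17, also known as BCMA, is the plasma cell receptor for the survival factor APRIL. It was at background at day 5, with a lowest level of 2.56 and no piglet above a level of 3. At day 28 its lowest, median and highest levels were 3.47, 3.77 and 4.20 in IR, 2.63, 3.72 and 4.40 in IN, and 2.99, 3.31 and 4.41 in OUT. In each group 4 of the 6 piglets of day 28 lay under 4, so no size is given for the difference from day 5. The measured difference was called in IR (adjusted P = 0.00638 by limma), where it fell under 2-fold without any of 5 piglets, and it was not called in IN (adjusted P = 0.0131) or OUT (adjusted P = 0.0288). In IN it was called without piglet 3. Whether these differences with age differed between rearing groups was tested through the rearing differences, and for none of the 10 features was the unadjusted P of such a change between day 28 and day 5 under 0.01. Over all features it was for 0.549% in IR minus OUT, 1.24% in IN minus OUT and 1.09% in IR minus IN.

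Between days 28 and 56 the call was made in both sow-reared groups and not in IR, and the test of that difference is given with the rearing differences. TNFRSF17 was at least 1.21 higher at day 56 in IN (adjusted P = 9.64e-05 by limma) and at least 0.98 higher in OUT (adjusted P = 0.00014). In IR it was at least 0.16 higher (adjusted P = 0.431 by limma, exact permutation P = 0.0887). At day 56 the 6 IR piglets had 4.12, 4.69, 3.85, 4.73, 4.05 and 3.71, against 5.47, 5.93, 5.91, 5.03, 4.86 and 4.78 in IN. The 6 OUT piglets had 4.04, 4.49, 5.85, 5.29, 5.94 and 4.90. All IR piglets lay below all IN piglets, while IR and OUT overlapped.

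TNFRSF17 was thus 2.21-fold lower in IR than in IN at day 56 (log2 difference -1.14, SE 0.32, adjusted P = 0.575 by limma, exact permutation P = 0.00216). The difference from OUT was -0.90 (95% interval -1.56 to -0.23, exact permutation P = 0.0411), short of the call. The IR minus IN difference at day 56 minus that at day 28 was -1.22 (SE 0.37, adjusted P = 0.388 by limma), and minus that at day 5 it was -1.10 (adjusted P = 0.539). For IR minus OUT the change between day 56 and day 28 was -1.13 (adjusted P = 0.9998). Of the 10 features, 3 had an unadjusted P under 0.01 for the change of IR minus IN between days 56 and 28 (2.11% of all features), 1 for that between days 56 and 5 (1.69%) and 1 for IR minus OUT between days 56 and 28 (0.712%). In IR minus OUT between days 56 and 5 (0.624% of all features) and in IN minus OUT (2.63% between days 56 and 28, 1.29% between days 56 and 5) there was none. No change of the 10 features passed after adjustment over all features. Those of TNFRSF17 are taken from measured levels, most of which were under 4 at day 28 and all at day 5, so their sizes are uncertain.

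The gene for APRIL itself, TNFSF13, was among the 21 genes of IgA induction and plasma cell homing. It averaged 4.26 in IR at day 56, against 5.34 in IN, a difference of -1.09 (SE 0.27, adjusted P = 0.411 by limma). CCL28, a chemokine that draws IgA plasmablasts to mucosa, averaged 4.72 in IR and 6.22 in IN (adjusted P = 0.743 by limma). These 2 were the members of that list called between IR and IN at day 56, both lower in IR, and none of the 21 was called between IR and OUT or between IN and OUT. The median of the list was -0.20 for IR over IN, against 0.00 over all features.

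Several homing genes changed with age along with JCHAIN and PIGR. CCR9, the receptor that guides lymphocytes to the small intestine, was under 4 in all piglets of day 5 and at least 1.67 higher at day 28 in IR, 1.31 in IN and 1.24 in OUT. Between day 28 and day 56 it gained a further 1.89 in IN (1.43 without piglet 3) and 2.30 in OUT. TNFSF13 was at least 1.34 higher at day 56 than at day 28 in IN (adjusted P = 1.69e-07 by limma) and at least 0.83 higher in OUT. CCL28 was called higher at day 28 than at day 5 in IR (at least 0.90) and OUT (at least 0.61) and higher at day 56 than at day 28 in IN (at least 1.85). Of the list, 5, 4 and 3 genes were called higher at day 28 than at day 5 in IR, IN and OUT, and none lower, with 7 in IN when both arrays that stood apart were left out.

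Markers of other immune cells moved in the same direction from day 5 to day 28. Of 15 T and NK cell genes, 12, 10 and 11 were called higher at day 28 than at day 5 in IR, IN and OUT, and of 12 macrophage and dendritic cell genes 9, 6 and 4. These counts, without the arrays that stood apart, were 11 in IN for T and NK cells, and 9 in IN and 5 in OUT for macrophages. Between days 28 and 56 none of the T and NK cell genes was called in IR, while 6 in IN and 7 in OUT were called higher. Without the arrays that stood apart these were 3 and 8. No macrophage or dendritic cell gene was called higher over those days in any group, and 3 were called lower in IR. The mean level of the T and NK cell genes at day 56 lay between 5.24 and 7.37 in IR, between 6.06 and 7.43 in IN and between 6.16 and 7.43 in OUT. That of the macrophage genes lay between 5.79 and 6.81 in IR, between 6.53 and 7.47 in IN and between 6.17 and 7.08 in OUT. At day 56 the median difference of the T and NK cell genes was -0.86 for IR over IN and -0.68 for IR over OUT, and that of the macrophage genes was -0.51 and -0.23. CCL5, a chemokine of T and NK cells, and the macrophage gene CD163 were called lower in IR than in IN at day 56, by 1.11 and 1.33, as was CD5L, which was under 4 in every IR piglet. CD247, a chain of the T cell receptor complex, was called lower in IR than in OUT, by 1.52. The part of these cells in the differences of PIGR and TNFRSF17 was not tested.

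CD79B encodes a chain of the B cell receptor complex, which marks B cells and falls in level as they become plasma cells. In 48 of the 54 piglets it lay between 2.29 and 3.40, within background. In the other 6 it stood far higher. These were IR piglet 2 at day 56 with 6.18, IN piglets 2 and 6 at day 28 with 9.79 and 9.50, OUT piglet 6 at day 28 with 8.02, and OUT piglets 2 and 5 at day 56 with 9.79 and 10.59. No piglet of day 5 was among them. They came from 4 of the 9 groups, and no comparison between rearing groups was called. The exact permutation P was 0.377 for IR over IN at day 28 and 0.297 for IR over OUT at day 56. A difference of group means rests on these few piglets, so no size is given.

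The named genes whose pattern was most like that of CD79B over the 54 arrays, after the group means were subtracted, were ZP3 (r = 0.982), GP2 (0.979), CR1 (0.968), CNR2 (0.967) and LTB (0.966). GP2 is a receptor of the M cells that overlie Peyer's patches in mouse and human, CR1 a complement receptor of B cells and follicular dendritic cells, CNR2 a cannabinoid receptor of B cells, LTB the lymphotoxin subunit of lymphocytes, and ZP3 a protein of the egg coat. The 6 piglets high in CD79B were the 6 highest of all 54 for each of these 5 genes. The genes were chosen by their correlation with CD79B in these same arrays, so this sharing is not separate evidence. For CR1 the lowest of the 6 had 9.57, and the highest of the other 48 had 4.83. For LTB these levels were 8.73 and 6.41, for ZP3 4.06 and 2.72, for GP2 3.73 and 2.43, and for CNR2 3.37 and 3.30, so that GP2 and CNR2 were under 4 in some of the 6.

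**Figure D4:**
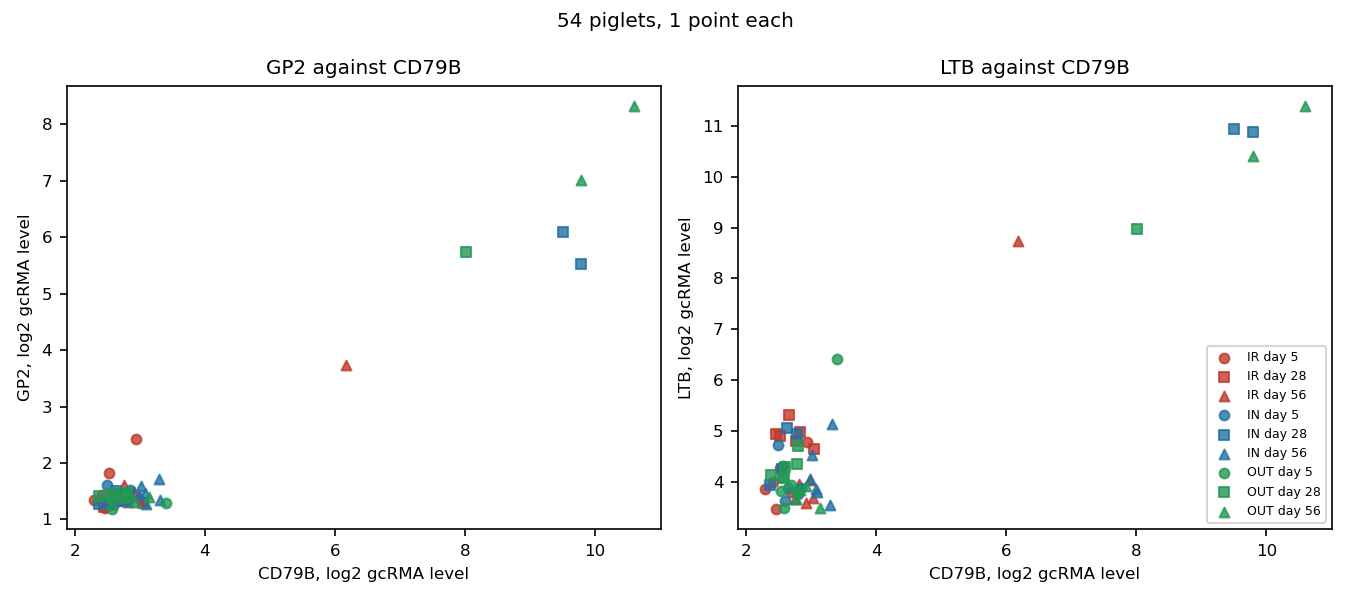
Log2 level of GP2 and of LTB (vertical axes) against that of CD79B (horizontal axes); each point is a piglet of the 54, marked by rearing group and day. The 6 piglets with CD79B at 6.18 or more were also the 6 highest for GP2 (3.73 or more) and for LTB (8.73 or more). Both genes were chosen by their correlation with CD79B in these arrays.

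Other B cell genes were high in the same piglets. Of 8 genes of B cells and follicles, BTK, CXCL13, SPIB and CD180 had their 6 highest levels in just these 6 piglets, CD40 had 5 of them, BLNK 4, LYN 2 and RAG1 1. CD180 was at 3.11 in IR piglet 2 of day 56 and at 3.26 in OUT piglet 6 of day 28, against 3.07 or less in the other 48. Its ranks there are within background, as are all levels of RAG1. CXCL13, the chemokine that gathers B cells into follicles, was at 8.68 to 11.37 in the 6 and at 8.19 or less in the other 48. The mean of the 8 genes correlated with CD79B at 0.96 over 54 arrays after the group means were subtracted. Its correlation was 0.43 with PIGR (2), 0.38 with TNFRSF17, 0.30 with JCHAIN and -0.20 with XBP1, and with the immunoglobulin features it lay between 0.43 and 0.53. The same correlations without those arrays that stood apart were 0.97 with CD79B, 0.30 with PIGR (2), 0.29 with TNFRSF17, 0.05 with JCHAIN and -0.33 with XBP1. How much follicle each piece of ileum held was not tested.

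XBP1 is the transcription factor of the unfolded protein response that plasma cells need for secretion, and epithelial secretory cells use it as well. It was the steadiest of the 6 genes apart from the dim SDC1 feature, with levels from 10.44 to 11.42 over the 54 arrays. The lowest, median and highest levels at day 28 were 11.09, 11.16 and 11.37 in IR, 10.57, 10.79 and 11.38 in IN, and 10.76, 10.99 and 11.42 in OUT. At day 56 they were 10.51, 10.64 and 10.92 in IR, 10.91, 11.07 and 11.31 in IN, and 10.44, 10.96 and 11.38 in OUT. IR thus had the highest mean of the 9 groups at day 28, 11.20 ± 0.10, and the lowest at day 56, 10.68 ± 0.15 (SD, n = 6).

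The IR levels of day 56 and day 28 did not overlap. The difference was -0.52 (SE 0.13, adjusted P = 0.0114 by limma, exact permutation P = 0.00216), a 1.44-fold change and so short of the call. Between IR and IN the difference was 0.30 at day 28 (exact permutation P = 0.0433) and -0.39 at day 56 (exact permutation P = 0.00433). The change between these ages was -0.69 (SE 0.19, adjusted P = 0.339 by limma), and -0.62 without the arrays that stood apart. The IR minus OUT difference was 0.17 at day 28 (95% interval -0.12 to 0.46) and -0.20 at day 56 (-0.48 to 0.08).

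Genes of the unfolded protein response and of protein folding in the endoplasmic reticulum were mostly below the call. Of 22 such genes, none was called between IR and IN or between IR and OUT at day 56. The chaperone HYOU1 was 1.47 lower in IN than in OUT at day 28 (adjusted P = 0.978 by limma) but 0.98 lower and not called without IN piglet 3, and the co-chaperone DNAJC3 was 1.07 higher in IN than in OUT at day 56 (adjusted P = 0.518). CRELD2 was called higher at day 28 than at day 5 in IR (1.46) and OUT (1.83), and SDF2L1 in OUT (2.13). The genes most like XBP1 were DNAJB6 (r = 0.728), MYL6, KDELR3, RCN1 and ATP2A2, of which KDELR3 returns proteins to the endoplasmic reticulum and ATP2A2 is its calcium pump.

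Of 9 genes of plasma cell differentiation and secretion, none was called between rearing groups at day 56. Their mean level then lay between 7.07 and 7.46 in IR piglets, between 7.38 and 7.69 in IN piglets and between 7.02 and 8.00 in OUT piglets. CD38, a surface enzyme of plasma cells and of other activated lymphocytes, was the 1 gene of the list called higher at day 28 than at day 5 in each rearing group, by at least 2.31 in IR, 1.12 in IN and 1.24 in OUT, its mean at day 5 being under 4. Between day 28 and day 56 CD38 (1.53) and the kinase gene PIM2 were called higher in IN, and neither was called when the arrays that stood apart were left out. CREB3L2, a transcription factor of secretory cells, was called lower at day 28 than at day 5 in IN, by 1.51. CD27, with a mean of 2.47, was within background.

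SDC1 encodes syndecan-1, the surface proteoglycan CD138 used to identify plasma cells, which epithelial cells also carry. Its features did not act alike. SDC1 (1) lay between 2.89 and 3.88 in all piglets, within background, and was not correlated with the others (r between -0.11 and 0.10 after the group means were subtracted). The brightest, SDC1 (2), stands for the gene. It was correlated at 0.75 with SDC1 (3) and at 0.79 with SDC1 (4), which were correlated with each other at 0.94. These correlations without the arrays that stood apart were 0.59, 0.69 and 0.92. The lowest, median and highest levels of SDC1 (2) at day 5 were 7.19, 7.57 and 8.97 in IR, 7.24, 7.32 and 7.65 in IN, and 6.94, 7.48 and 10.04 in OUT. At day 28 they were 8.23, 8.46 and 8.87 in IR, 6.98, 8.01 and 8.90 in IN, and 8.05, 8.55 and 9.19 in OUT. At day 56 all piglets lay between 7.41 and 8.70.

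The level of 10.04 belonged to OUT piglet 3 of day 5, the array that stood apart. The other 5 OUT piglets of day 5 lay between 6.94 and 7.97. In this piglet SDC1 (3) and SDC1 (4) were at 9.44 and 10.63 as well. Its mean level of the epithelial genes was 9.34, against 10.67 to 11.16 in the other OUT piglets of day 5, and its smooth muscle genes were at 11.99, against 10.47 to 10.97. Fibroblast genes were at 9.77, against 8.33 to 8.65, and endothelial genes at 6.94, against 5.41 to 5.85. The part of these cells in the SDC1 level was not tested.

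With that array, no SDC1 feature was called between day 28 and day 5. The difference of SDC1 (2) was 0.78 in IR (exact permutation P = 0.026) and 0.74 in OUT (exact permutation P = 0.165). Without the arrays that stood apart the OUT difference was 1.18 (adjusted P = 0.000818 by limma), and SDC1 (3) (1.51) and SDC1 (4) (1.40) were called as well, which brought the OUT count to 6 of 10 features. Between rearing groups the widest SDC1 differences were at day 28 in SDC1 (4), at 1.57 for IR over IN (exact permutation P = 0.0303) and -1.45 for IN over OUT (exact permutation P = 0.0628), both short of the call. Without IN piglet 3 they were 1.28 and -1.15. At day 56 SDC1 (2) differed by 0.06 between IR and IN (95% interval -0.35 to 0.46) and by 0.23 between IR and OUT (-0.17 to 0.63). SDC1 (3) was then 0.73 higher in IR than in OUT (0.003 to 1.46) and 0.75 higher in IN than in OUT (0.02 to 1.48). Both were short of the call. The genes most like SDC1 (2) were WFDC1 (r = 0.809 and 0.771 for its 2 features), CLDN4, ETS2 and WASF2, of which CLDN4 is a tight junction protein. Without the arrays that stood apart the correlations with these genes fell to between 0.48 and 0.65, and none of them was among the 5 most alike.

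Over all 54 arrays JCHAIN and PIGR had close neighbours in common, which rested largely on 1 array. After the group means were subtracted, JCHAIN was most like LOC100152327 (r = 0.868), IGHA2 (0.821), LOC396781 (0.707), the trefoil factor gene TFF2 (0.669) and PIGR (0.666). PIGR was most like LOC100152327 (0.806), IGHA2 (0.771), CDK2AP2 (0.744), CKS2 (0.742) and JPT1 (0.734). IN piglet 3 of day 28, which was low in all of JCHAIN (4.70), IGHA2 (3.70) and PIGR (2.22), enters all these values. Without the arrays that stood apart, JCHAIN correlated with LOC100152327 at 0.59, with IGHA2 at 0.40, with LOC396781 at 0.36, with TFF2 at 0.26 and with PIGR at 0.33, and only LOC100152327 stayed among its 5 nearest. PIGR then correlated with LOC100152327 at 0.67 and with IGHA2 at 0.61, and its 5 nearest genes were MELK (0.713), AURKA (0.701), MRPL18, NEK2 and TMEM258, of which MELK, AURKA and NEK2 are kinases of dividing cells. In the same piglet the T and NK cell genes had a mean of 3.39, against 5.32 to 7.30 in the other IN piglets of day 28, and the macrophage genes one of 5.14, against 6.54 to 7.53. The 5 genes most like TNFRSF17 were UBE2C (0.702), GSG2, PSMA7, NUDC and PGAM5, of which UBE2C acts in mitosis, and without those arrays they correlated with it at 0.63 to 0.67. All arrays of a group share their rearing and age, and the values of 1 array share its scan.

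**Figure D5:**
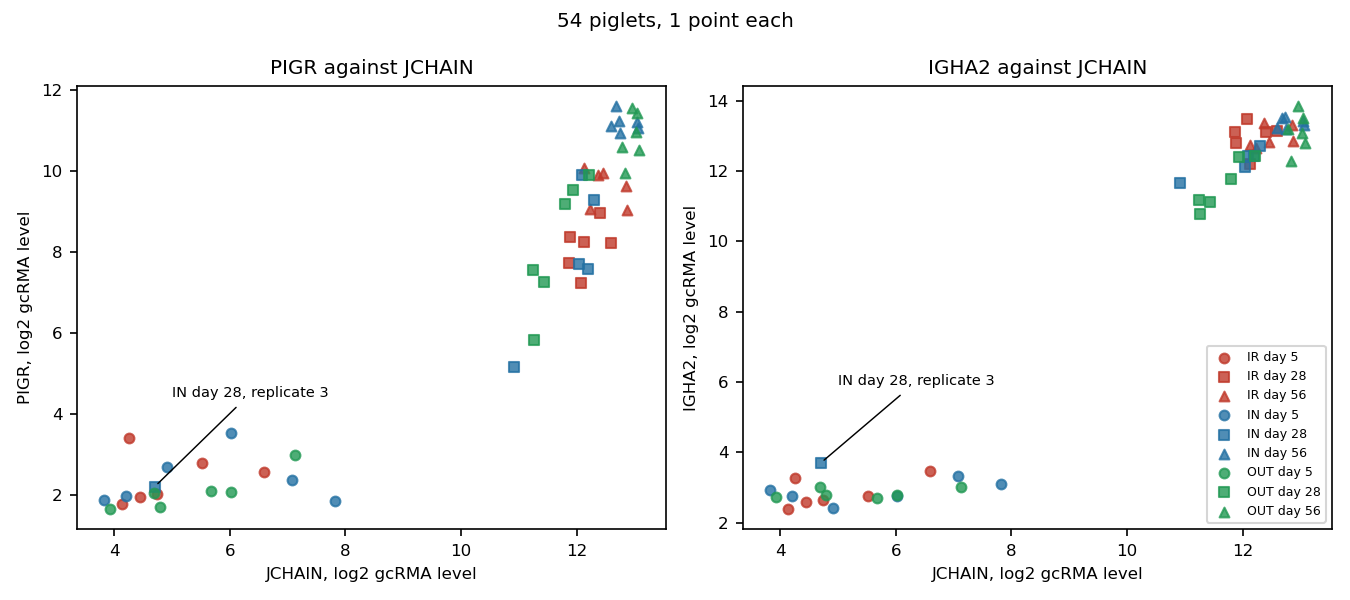
Log2 level of PIGR and of IGHA2 (vertical axes) against that of JCHAIN (horizontal axes); each point is a piglet of the 54, marked by rearing group and day, with IN piglet 3 of day 28 named. The piglets of day 5 lay at JCHAIN levels of 7.83 or less, and all piglets of days 28 and 56 but IN piglet 3 lay at 10.91 or more.

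In the order of the 9 group means, PIGR was highest in IN at day 56 (11.19 ± 0.23), followed by OUT (10.83 ± 0.60) and IR (9.61 ± 0.46) of the same age (SD, n = 6). OUT and IN did not differ beyond the larger SD, while the step to IR did. The day 28 groups came next, at 8.21 in OUT, 8.13 in IR and 6.98 in IN, within the spread of each other, and the day 5 groups last, from 2.10 to 2.43. TNFRSF17 had the same 3 blocks, with IN (5.33 ± 0.51) and OUT (5.09 ± 0.75) at day 56 not apart, IR (4.19 ± 0.43) a step of 0.90 below OUT, and IR of day 56 not apart from IR of day 28 (3.78 ± 0.29). In JCHAIN all 3 groups of day 56 came first and all 3 of day 5 last. XBP1 and SDC1 had no neighbours in the order that differed by more than the larger SD.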

How the data were processed

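Total RNA from whole ileal tissue of 54 piglets was hybridised to GeneChip Porcine Genome arrays, 1 per piglet. The deposited values are log2 expression levels that the authors made from the scans with GCOS 1.2 and gcRMA, a background correction, quantile normalisation and summary over each feature's probes. No detection call was used. From these, 94 control features were left out of 24123 and 24029 were tested. The platform annotation gave 10099 features 1 gene symbol, 198 several and 13732 none, and 132 features were named from the study's supplementary list.

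Groups were taken from the labels. For each day the 3 rearing groups were fitted together with limma 3.58.1 in R 4.3.3, and ages were compared in 1 fit of all 9 groups, which also gave the changes of a rearing difference between days. A feature was called where P was under 0.01 before adjustment and the change at least 2-fold, the study's own rule, and Benjamini-Hochberg P under 0.05 are given beside it. The methods used a run as a block, which the labels do not name. Replicate numbers in the labels were checked as a stand-in: of 50 pairs of piglets with the same number, 19 had deviations correlated over 0.1 (lowest -0.48, median 0.05, highest 0.68), so the numbers did not pair the piglets. P-values rest on the spread between piglets, some of which shared a dam. The labels do not name the dam, so IR and IN piglets of the same sow were not paired. Lower bounds set levels under 4 in the lower group to 4, and correlations and list counts were repeated without the 2 arrays that stood apart, both chosen after seeing the data. The fit was tested on simulated data. The brightest feature by mean stood for a gene. All features of the 6 genes, 3 immunoglobulin features, up to 4 genes of each list by P and the 5 most correlated genes were named. The immunoglobulin features were found by their name in the study's supplementary list or by a gene synonym. Others may lie among the features without a symbol. The 6 genes, the 12 lists (170 genes on the array) and the tests were chosen with earlier results of these data known. Figures were drawn with matplotlib 3.10.9.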

Additional observations from a re-analysis of the deposited data

Results flagged for a closer look

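In each group of 6 piglets the highest or lowest level was set against the others by Dixon's test, which by chance marks about 1 group in 20. Of 90 groups of the 10 features, 10 held such a piglet. JCHAIN was at 4.70 in IN piglet 3 of day 28. CD79B was at 6.18 in IR piglet 2 of day 56, at 8.02 in OUT piglet 6 of day 28 and at 3.40 in OUT piglet 3 of day 5. The same OUT piglet 3 was marked in 3 SDC1 features, at 10.04 in SDC1 (2), 9.44 in SDC1 (3) and 10.63 in SDC1 (4), and IR piglet 1 of day 5 was at 8.97 in SDC1 (2). PIGR (1) was at 3.57 in IN piglet 6 of day 5 and PIGR (2) at 2.99 in OUT piglet 6 of day 5, levels under 4 and so within background. The groups of IN at day 28 and OUT at day 56 held a pair of piglets high in CD79B each, which this test does not mark.

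A change of a rearing difference between days was marked where its unadjusted P by limma was under 0.01, which held for 5 of 90 such changes, none of them after adjustment over all features. Over all features such changes held for 0.712% for IR minus OUT between days 56 and 28, 2.11% for IR minus IN between days 56 and 28, and 1.69% for IR minus IN between days 56 and 5, the 3 comparisons that hold the 5 changes. For TNFRSF17 the IR minus OUT difference changed by -1.13 between day 56 and day 28, and the IR minus IN difference by -1.22 between day 56 and day 28 and by -1.10 between day 56 and day 5, with most levels of day 28 and all of day 5 under 4. For XBP1 the IR minus IN difference changed by -0.69 between day 56 and day 28. For PIGR it changed by -2.74 over the same days, and by -1.78 (adjusted P = 0.593) without the arrays that stood apart, IN piglet 3 of day 28 being one of them.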

How the results depend on the processing

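Gene fold changes were followed for the brightest feature of each gene, and only where the main limma fit gave an unadjusted P under 0.05. This left 28 fold changes, and most of the other settings left out 1 piglet. None of the 28 reversed, but fold changes chosen by a low P are the least likely to, and the others were not followed. Of the 631 values of these 28 under other settings, 609 stayed on the same side of the call, 12 lost it and 10 gained it. Of 390 counts of called features, 367 stayed within 1.5 times. With the label number as a replicate block, the count of the 10 features called was 1 in place of 0 for IN over OUT at day 28, 1 in place of 0 for IR over IN at day 28, and 1 in place of 2 for IR over OUT at day 56 (also 1 with numbers in twos as a replicate block and only those 2 groups). TNFRSF17 then missed the call for IR over IN at day 56 (-1.12), as did JCHAIN for day 56 over day 28 in IN (1.93). With 9 groups in 1 fit the counts were 1 for IR over IN at day 28 and 0 for IR over OUT at day 56, and PIGR missed the call at day 56 for IR over OUT and for IR over IN, since its unadjusted P rose, though its differences of -1.22 and -1.58 were unchanged. By adjusted P under 0.05, 0 features were called for IR over OUT and 1 for IR over IN at day 56. For day 56 over day 28 in IR, 2 in place of 1 were called with the 3 ages of IR alone and with the 2 arrays that stood apart left out, a setting chosen after seeing the data, which also gave 6 in place of 3 for day 28 over day 5 in OUT. Leaving out 1 piglet at a time gave counts from 0 to 1 for IN over OUT at day 28 (1 without IN piglet 1), from 0 to 1 for IR over IN at day 28 (1 without IR piglet 2, IN piglet 1 or IN piglet 4), from 2 to 3 for IR over OUT at day 56, from 0 to 1 for day 56 over day 28 in IR (0 without IR piglets 1, 2, 5 or the unnumbered one of day 56, or 2, 3 or 4 of day 28), and from 3 to 6 for day 28 over day 5 in OUT (6 without OUT piglet 3 of day 5). TNFRSF17 passed the call for IR over OUT at day 56 without IR piglet 5, OUT piglet 1 or OUT piglet 2 (lowest -1.10), and in IR its day 28 over day 5 difference fell under 2-fold without any of 5 piglets (0.922 to 0.999). SDC1 passed the call for day 28 over day 5 in IR without IR piglet 1 of day 5 (1.03). Apart from what is named here and in the results, the cause was not tested. Levels near background limit TNFRSF17 and CD79B most.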
